A study of Mus musculus with 2 samples.

Results

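The pigment cell genes described here are 9 genes whose products make or regulate melanin-bearing cells, namely Dct, Tyrp1, Tyr, Pmel, Mlana, Slc45a2, Mitf, Kit and Rpe65. Their members on the array are the 16 probe sets that the platform annotation assigns to a single one of these symbols, of 45101 probe sets in all. A probe set is a group of short oligonucleotides that together read 1 transcript or a few. RNA came from heads of newborn mice, with 1 array for each genotype. In the MatDp(dist2) head, the part of Chr 2 beyond the breakpoint of the translocation T(2:9)11H (also T11H) was present as 2 maternal copies, and the corresponding part of Chr 9 as 2 paternal copies. In the PatDp(dist2) head, both copies of distal Chr 2 were paternal and both of distal Chr 9 maternal. Both genotypes arose among the young of carriers of that translocation, and the labels list no other allele or agent. The labels name no sex, no number of animals behind each RNA and no coat colour of the stock.

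Melanin is made inside melanosomes, organelles that mature as Pmel fibrils form and as the enzymes tyrosinase, Tyrp1 and Dct are delivered to them. In the head, melanosomes are found in neural crest-derived melanocytes of skin, hair follicles and choroid, and in the retinal pigment epithelium, a layer of the eye that arises from the optic cup. The transcription factor Mitf drives many melanosome genes in both kinds of cell, and the receptor Kit is needed for melanoblast survival and migration. The comparison of the study asks which transcripts depend on the parental origin of distal Chr 2, and 0 of the 9 genes lie on Chr 2 or Chr 9.

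Mitf binds the letters CATGTG, the core of the so-called M box, near the start of melanin enzyme genes. The windows of 250 bases before the start of the 3 enzyme genes are shown because these genes share that element and because their probe sets all had the higher signal in the MatDp(dist2) head. Only the Dct probe set was bright enough in both heads for a fold, so the shared direction does not show that the 3 genes changed together. They are taken from RefSeq on GRCm38.p6 and read 5′ to 3′ on the gene's own strand, with matches to CATGTG on either strand in capitals. The Dct window is chr14:118052247-118052496 on the minus strand, the Tyrp1 window is chr4:80833963-80834212 on the plus strand and the Tyr window is chr7:87493513-87493762 on the minus strand.
Dct: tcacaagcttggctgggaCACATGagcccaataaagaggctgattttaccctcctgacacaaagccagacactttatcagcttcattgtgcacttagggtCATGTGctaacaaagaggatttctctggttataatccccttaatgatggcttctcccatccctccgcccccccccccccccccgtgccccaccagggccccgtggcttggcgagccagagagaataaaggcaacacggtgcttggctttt
Tyrp1: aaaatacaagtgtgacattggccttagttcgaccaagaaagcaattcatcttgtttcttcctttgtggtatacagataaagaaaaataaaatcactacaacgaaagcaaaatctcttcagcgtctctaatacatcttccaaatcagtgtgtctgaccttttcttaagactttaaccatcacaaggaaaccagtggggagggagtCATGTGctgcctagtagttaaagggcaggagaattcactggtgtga
Tyr: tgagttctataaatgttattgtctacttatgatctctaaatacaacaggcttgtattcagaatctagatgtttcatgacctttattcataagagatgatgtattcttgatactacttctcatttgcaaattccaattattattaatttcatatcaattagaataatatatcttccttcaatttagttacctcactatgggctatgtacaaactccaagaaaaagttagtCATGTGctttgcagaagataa

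Dct had 2 matches, CATGTG on the gene strand beginning 150 bases before the start and its reverse complement CACATG beginning 232 bases before it. Tyrp1 had 1 match beginning 46 bases before the start, and Tyr had 1 beginning 21 bases before it, both as CATGTG on the gene strand. The only motif searched was CATGTG, on both strands, and it is itself 1 form of the general E box CANNTG. Among 32851 RefSeq promoter windows of this length, 12.3% held at least 1 match and 1.62% more than 1. The 3 enzyme windows were shown in part because they share this element, so their matches are no test against these shares. The table held windows for 6 of the 9 genes, without Pmel, Mlana and Slc45a2. The Rpe65 window had 1 match, as CACATG, and neither the 3 windows of Mitf nor the 2 of Kit had these letters. A match describes the sequence and does not show binding.

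The values are the authors' deposited MAS5 signals, an intensity on a linear scale. Medians over all probe sets were 201 for MatDp(dist2) and 173 for PatDp(dist2). A floor of 187, the median of those medians, stood for the level under which a signal is not read as a fold. A probe set with 1 head at or above the floor has a bound, the brighter signal divided by the floor, and a probe set with neither has no fold. At or above the floor were 51.6% of probe sets for MatDp(dist2) and 48.3% for PatDp(dist2). The array labelled as a PatDp(dist2) head stood apart in having all of its matched lens crystallins below the floor. The lens gap junction gene Gja3 was above the floor on its brightest probe set, at 344 with MatDp(dist2) and 333 with PatDp(dist2). There were no replicates, so no difference could be set against the spread between animals and no test was made. In RNA of a head, fewer cells of a type and less RNA per cell cannot be told apart.

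Pmel and Dct were higher in the MatDp(dist2) head by more than 2-fold, while Kit, Slc45a2 and Tyrp1 were higher there by smaller folds or bounds, and Mitf was lower there. Of the 16 probe sets, 14 had the higher signal in the MatDp(dist2) head and 2, both of Mitf, in the PatDp(dist2) head. Over all probe sets of the arrays 58.6% had the higher signal in the MatDp(dist2) head, so the arrays as a whole leaned the same way. Only 9 of the 16 probe sets, of 6 genes, were at or above the floor on at least 1 array, and those of Tyr, Mlana and Rpe65 were below it in both heads. A 2-fold difference toward MatDp(dist2) was reached by 2 of the 9, those of Pmel and Dct, against a background of 4.15% of measured probe sets. Toward PatDp(dist2) it was reached by 0, against a background of 2.81%. The members were chosen with earlier results of these data known, so these backgrounds describe the arrays and give no test of the members. With each array centred on its own median, a scaling that lowers every log2 ratio by 0.21, the backgrounds were 2.49% and 4.95%, 13 of the 16 member probe sets and 43.5% of all probe sets had the higher signal in the MatDp(dist2) head, and Dct was just under 2-fold.

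**Figure D1:**
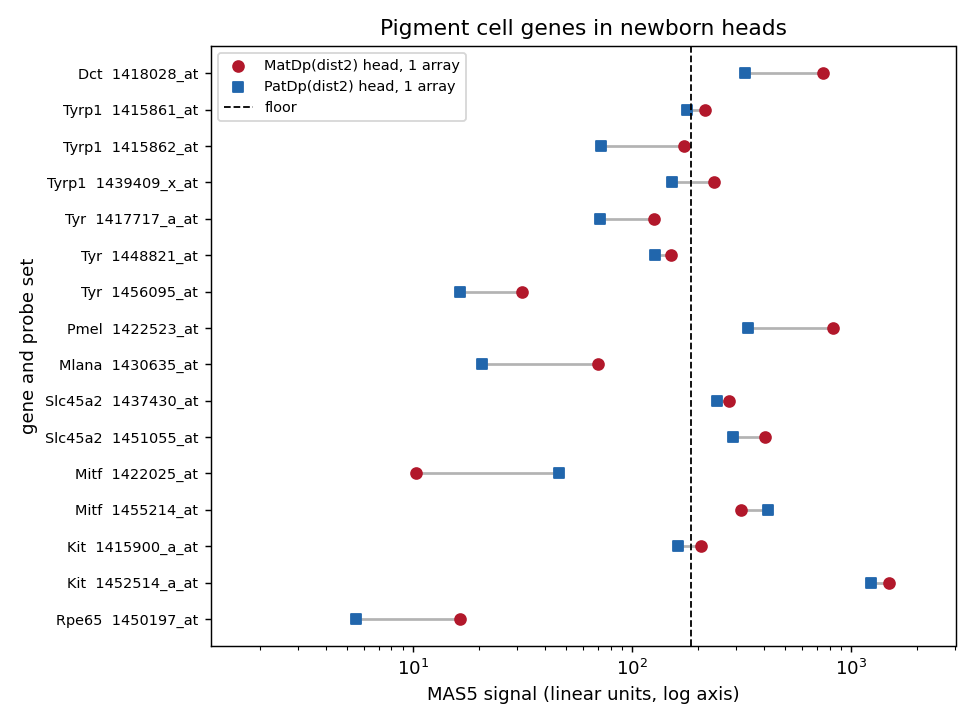
MAS5 signal of each of the 16 pigment cell probe sets (log axis, linear units) in the MatDp(dist2) head (red circles) and the PatDp(dist2) head (blue squares), 1 array each, with the floor of 187 as a dashed line. The circle lies to the right of the square in 14 of 16 probe sets, and 7 probe sets lie left of the floor in both heads.

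Dct, which encodes dopachrome tautomerase, the enzyme that converts dopachrome to a carboxylated indole, had a signal of 748 with MatDp(dist2) and 327 with PatDp(dist2). The ratio was 2.29-fold, or 1.19 on the log2 scale, from the only probe set of the gene. It was 0.98 on that scale with median centring, and 1.08 with quantile normalization or a loess fit. Both heads lay clearly above the floor, so Dct was the melanin enzyme with a direct fold. Of probe sets measured in both heads, 2.05% had a ratio as high or higher.

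Tyrp1, a melanosomal enzyme related to tyrosinase that acts in eumelanin synthesis, was read by 3 probe sets. Probe set 1415861_at had signals of 214.6 with MatDp(dist2) and 178.4 with PatDp(dist2), a bound of 1.15-fold. Probe set 1439409_x_at, whose suffix marks probes that may also match other transcripts, had 238 with MatDp(dist2) and 152 with PatDp(dist2), at least 1.27-fold. Probe set 1415862_at was below the floor in both, with 172.8 with MatDp(dist2) and 72.1 with PatDp(dist2). All 3 were brighter in the MatDp(dist2) head, and none reached a bound of 2-fold.

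Tyr, the gene of tyrosinase, the enzyme of the first and limiting step of melanin synthesis, was below the floor on all 3 of its probe sets. The signals were 126 with MatDp(dist2) and 71.9 with PatDp(dist2) for 1417717_a_at. They were 150.3 with MatDp(dist2) and 127.5 with PatDp(dist2) for 1448821_at, and 31.6 with MatDp(dist2) and 16.5 with PatDp(dist2) for 1456095_at. No fold is read from them, and at these signals neither presence nor absence of Tyr RNA was shown. Below the floor in both heads, 61.6% of all probe sets had the higher signal in the MatDp(dist2) head, the direction of all 3.

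Pmel, the amyloid protein whose fibrils form the scaffold of the melanosome, had the largest ratio of the members with a direct fold. Its only probe set had signals of 828 with MatDp(dist2) and 337.5 with PatDp(dist2), 2.45-fold, or 1.29 on the log2 scale. The ratio was 1.08 on that scale with median centring and 1.19 with quantile normalization or a loess fit. Of probe sets measured in both heads, 1.63% had a ratio as high or higher. With 2 arrays the pattern of a gene is a single ratio, and 93 of 11270 genes at or above the floor in both heads lay within 0.1 of the log2 ratio of Pmel and 127 within 0.1 of that of Dct.

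Mlana, a melanosomal membrane protein that binds Pmel and is known as a melanocyte antigen in human, was below the floor, at 70.1 with MatDp(dist2) and 20.8 with PatDp(dist2). Slc45a2, a transporter of the melanosome membrane whose loss lightens coat and eyes, was measured in both heads on 2 probe sets. Probe set 1451055_at had 404 with MatDp(dist2) and 289 with PatDp(dist2), 1.40-fold. Probe set 1437430_at had 279 with MatDp(dist2) and 244 with PatDp(dist2), 1.14-fold, a direction that turned to -0.02 on the log2 scale with median centring. Slc45a2 thus differed less between the heads than Pmel and Dct on either probe set.

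Mitf was the only member whose probe sets were brighter in the PatDp(dist2) head. Probe set 1455214_at had signals of 316 with MatDp(dist2) and 417 with PatDp(dist2), 1.32-fold lower in the MatDp(dist2) head, or -0.40 on the log2 scale. The log2 ratio stayed between -0.61 and -0.31 under the scalings and offset tried. The floor does not enter this ratio, and with the floor at the 70th percentile, 465, both signals lay below it. Probe set 1422025_at lay below the floor, at 10.3 with MatDp(dist2) and 46.6 with PatDp(dist2). Mitf is made from several promoters, and the melanocyte form is 1 of several in the body. The form read by each probe set was not examined.

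Kit, the receptor tyrosine kinase for the ligand Kitl, is made in melanoblasts and also in mast cells and some neurons. Its probe set 1452514_a_at had signals of 1499 with MatDp(dist2) and 1238 with PatDp(dist2), 1.21-fold, and 1415900_a_at had 206 with MatDp(dist2) and 162 with PatDp(dist2), at least 1.10-fold. Neither probe set reached 2-fold. Mast cell markers were higher in the MatDp(dist2) head at the same time. Of 8 listed markers 6 were measured, all with the higher signal there and 3 past 2-fold. Of all measured genes, 52.0% had the higher signal in the MatDp(dist2) head, 4.43% were past 2-fold toward it and 3.47% toward PatDp(dist2). The 6 mast cell genes were too few to set against these shares, and their list was chosen with earlier results known. The count past 2-fold toward MatDp(dist2) was 4 with quantile normalization or the loess fit. The signals of the 8 markers summed to 14240 with MatDp(dist2) and 6666 with PatDp(dist2). Cpa3, a mast cell carboxypeptidase, had 5843 with MatDp(dist2) and 2251 with PatDp(dist2), 2.60-fold. The tryptase gene Tpsb2 had 1612 with MatDp(dist2) and 609 with PatDp(dist2), 2.65-fold, and the chymase gene Mcpt4 had 497 with MatDp(dist2) and 155 with PatDp(dist2), at least 2.66-fold. The receptor subunits Fcer1a and Ms4a2 were below the floor in both heads. The part of mast cells in the Kit signal was not tested.

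Rpe65, the isomerase that regenerates the visual chromophore in the retinal pigment epithelium, had signals of 16.4 with MatDp(dist2) and 5.5 with PatDp(dist2), far below the floor. The pigment epithelium as a cell type was therefore not marked by its defining gene. Of 11 other genes of that epithelium matched on the array, 6 were measured, with 1 past 2-fold toward MatDp(dist2) and 0 toward PatDp(dist2). These 6 were too few to set against the shares of all measured genes, 4.43% toward MatDp(dist2) and 3.47% toward PatDp(dist2). Of the 6, 3 were brighter in each head, with a median log2 ratio of -0.02. Otx2, a regulator of this epithelium and of the forebrain, had 316 with MatDp(dist2) and 26.0 with PatDp(dist2), at least 1.69-fold. Rlbp1, a retinaldehyde-binding protein also made by Müller glia, had 429 with MatDp(dist2) and 163 with PatDp(dist2), at least 2.30-fold. Slc16a8, also of the list, had 193.7 with MatDp(dist2), just above the floor, and 131.2 with PatDp(dist2), at least 1.04-fold. The 3 that were lower with MatDp(dist2) act in retinoid metabolism or in the uptake of photoreceptor debris. Rdh10, a retinol dehydrogenase gene, had 681 with MatDp(dist2) and 843 with PatDp(dist2), Rdh5, another, had 305 with MatDp(dist2) and 326 with PatDp(dist2), and Mertk, a receptor for debris uptake, had 403 with MatDp(dist2) and 539.6 with PatDp(dist2). Lrat, Best1, Rgr, Rrh and Stra6, which act in retinoid handling, ion conductance or light response of that layer, were below the floor in both heads. The summed signal of the 11 genes was 2653 with MatDp(dist2) and 2306 with PatDp(dist2).

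**Figure D2:**
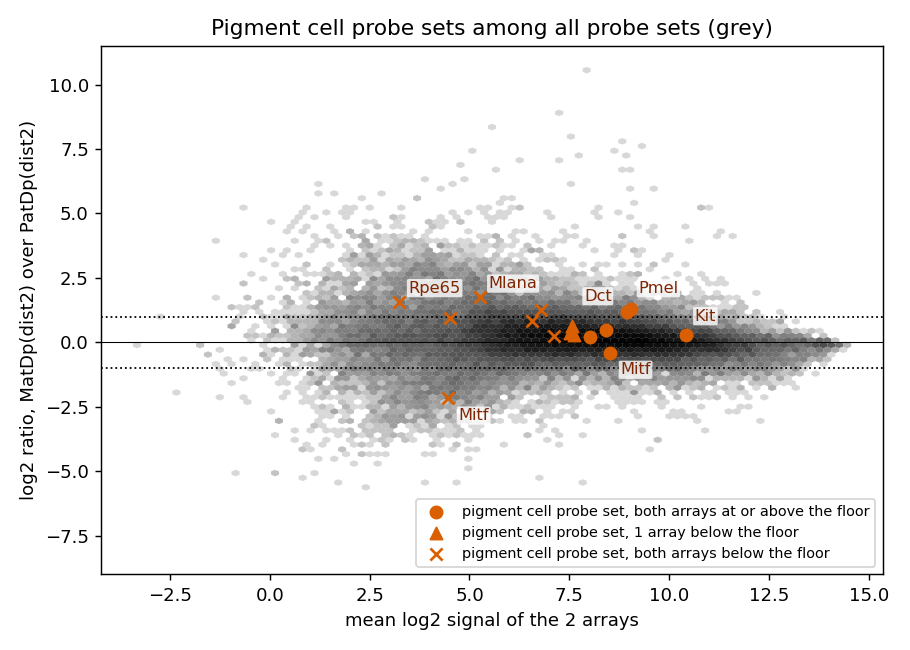
Log2 ratio of MatDp(dist2) over PatDp(dist2) signals against the mean log2 signal of the 2 arrays, with all probe sets in grey (darker for more probe sets) and the 16 pigment cell probe sets in orange, by whether both, 1 or neither array reached the floor. Pmel and Dct lie above the dotted line for 2-fold among bright probe sets, while the larger ratios of Mlana, Rpe65 and the dim Mitf probe set lie at low signals, where the grey cloud is widest.

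Of 8 matched genes for other melanosome proteins and transporters, 2 were measured, the copper transporter Atp7a and the lysosomal and melanosomal transporter gene Mfsd12, and 0 were at least 2-fold apart in either direction, too few genes to set against the shares of 4.43% and 3.47% of all measured genes. The pigment cell genes Oca2, Gpr143, Trpm1, Slc7a11 and Gpnmb, and the ion channel gene Tpcn2, were below the floor in both heads. Oca2, a melanosomal anion transporter, came closest to it, at 184.3 with MatDp(dist2) and 145.3 with PatDp(dist2). Trpm1, a channel gene of melanocytes and retinal bipolar cells, had 107 with MatDp(dist2) and 47.0 with PatDp(dist2) on its brightest probe set.

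Genes of melanosome biogenesis and transport, most of which also serve lysosome-related organelles of other cells, were measured widely. Of 21 matched genes 18 were measured and 0 were at least 2-fold apart in either direction, with a median log2 ratio of -0.04 against 0.02 for all measured genes. As 4.43% of all measured genes passed 2-fold toward MatDp(dist2) and 3.47% toward PatDp(dist2), a count of 0 among 18 is near the background. The ratios ran from -0.38 for Rab32 to 0.68 for Myo5a. Rab38, a small GTPase that sorts tyrosinase family enzymes to melanosomes, had 950.2 with MatDp(dist2) and 795 with PatDp(dist2), and Mlph, the melanophilin that links melanosomes to their motor, had 243 with MatDp(dist2) and 303 with PatDp(dist2). Both differed by less than 1.25-fold on these brightest probe sets. Rab38 probe set 1417700_at had 754 with MatDp(dist2) and 556 with PatDp(dist2), 1.36-fold.

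Among 21 regulators and signals of melanoblasts 17 were measured, with 1 past 2-fold toward MatDp(dist2), 0 toward PatDp(dist2) and a median log2 ratio of 0.00. The background was again 4.43% and 3.47% of measured genes, near these counts. Toward PatDp(dist2) the count was 1 with median centring, quantile normalization or the loess fit. Lef1, a nuclear effector of Wnt signalling with roles in many tissues of the head, had 440 with MatDp(dist2) and 177 with PatDp(dist2), at least 2.35-fold. Sox10, which activates Mitf and Dct in the crest lineage and is also made by glia, had 487 with MatDp(dist2) and 569 with PatDp(dist2), 1.17-fold lower with MatDp(dist2). Ednrb, the endothelin receptor of melanoblasts, had 1304 with MatDp(dist2) and 1962 with PatDp(dist2) on its brightest probe set, 1.5-fold lower with MatDp(dist2). Its other 2 probe sets were brighter in the MatDp(dist2) head, with 336 there and 231 in the PatDp(dist2) head, and with 315 there and 280.2 in the PatDp(dist2) head. Kitl, the ligand of Kit, had 2664 with MatDp(dist2) and 2204 with PatDp(dist2) on its brightest probe set, 1.21-fold. Its probe set 1448117_at had 981 with MatDp(dist2) and 604 with PatDp(dist2), 1.62-fold, and 1426152_a_at had 210 and 199, 1.05-fold. Mc1r, the melanocortin receptor of melanocytes, was below the floor in both heads, and Pax3, a crest and muscle regulator upstream of Mitf, had 325 with MatDp(dist2) and 308 with PatDp(dist2).

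Of the pathway genes a few lie on the duplicated chromosomes. On Chr 2, the nonagouti gene a, whose protein opposes melanocortin signalling, and Edn3, the endothelin that acts on Ednrb, lie distal of the imprinted gene H13 by gene order. The gene a was below the floor, at 88.8 with MatDp(dist2) and 68.0 with PatDp(dist2). Of Edn3, probe set 1438696_at had 208 with MatDp(dist2) and 129.5 with PatDp(dist2), while 1441924_x_at had 159.8 with MatDp(dist2) and 187.1 with PatDp(dist2). Proximal of H13 on Chr 2, Bloc1s6, a subunit of a melanosome sorting complex, had 1455 with MatDp(dist2) and 1422 with PatDp(dist2). Atrn, the attractin gene of the agouti pathway, had 425 with MatDp(dist2) and 539.6 with PatDp(dist2), and Zeb2, a regulator of crest cells and neurons, had 1477 with MatDp(dist2) and 857 with PatDp(dist2), 1.72-fold. On Chr 9, Myo5a, the myosin that carries melanosomes and also neuronal cargo, had 2321 with MatDp(dist2) and 1450 with PatDp(dist2), 1.60-fold, and its partner Rab27a was below the floor. The labels do not place these genes relative to the breakpoint.

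Among markers of other eye tissues, the lens and the neural retina, some lens genes differed between the heads by far larger folds than Pmel and Dct. Of 17 matched lens genes, all measured, 12 were past 2-fold toward MatDp(dist2) and 16 did not reach the floor with PatDp(dist2). Among all measured genes, 4.43% were past 2-fold toward MatDp(dist2), and 52.0% were brighter there. The lists of eye genes were chosen with earlier results of these data known, so these shares give no test of them. The lens signals summed to 46291 with MatDp(dist2) and 1080 with PatDp(dist2). Cryba1, a lens crystallin, had 9053 with MatDp(dist2) and 6.0 with PatDp(dist2), at least 48.4-fold, followed by Cryga (at least 36.0-fold), Crybb1 (at least 34.6-fold) and Crygb (at least 24.8-fold). Of 14 matched genes of neural retina and eye field, 5 were measured, all brighter in the MatDp(dist2) head, and 2 were at least 2-fold higher there, Lhx2, at 924 with MatDp(dist2) and 253 with PatDp(dist2), and Six3, at 517 with MatDp(dist2) and 219 with PatDp(dist2). Both are also made in the forebrain. The retinal genes Crx, Nrl, Sag, Rcvrn, Gnat1 and Pde6b were below the floor in both heads.

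Many skin and hair genes were also higher with MatDp(dist2). Of 8 epidermal genes, all were brighter there, where 52.0% of all measured genes were, and 6 were past 2-fold, with summed signals of 49448 with MatDp(dist2) and 6757 with PatDp(dist2). The outer-layer genes Flg (at least 26.5-fold), Lor (20.5-fold), Krt10 (17.2-fold) and Krt1 (16.2-fold) were furthest apart. The basal keratins Krt5, at 4407 with MatDp(dist2) and 2796 with PatDp(dist2), and Krt14, at 2359 with MatDp(dist2) and 1517 with PatDp(dist2), differed by 1.58-fold and 1.56-fold on their brightest probe sets. Krt14 probe set 1460347_at had 1840 with MatDp(dist2) and 832 with PatDp(dist2), 2.21-fold, and 1455573_at differed by 1.40-fold in the same direction. Of 10 measured hair follicle genes, 4 were past 2-fold toward MatDp(dist2) and 0 toward PatDp(dist2), with summed signals of 5284 with MatDp(dist2) and 3334 with PatDp(dist2) over 11 matched genes, where 4.43% and 3.47% of all measured genes passed. Of the 10, 7 were brighter with MatDp(dist2) and 3 with PatDp(dist2). Tchh, a protein of the inner root sheath, had 922.5 with MatDp(dist2) and 120 with PatDp(dist2), at least 4.93-fold, and the sheath keratin Krt25 had 756 with MatDp(dist2) and 269 with PatDp(dist2), 2.81-fold. Krt27 (at least 2.66-fold) and Krt71 (at least 2.07-fold), also keratins of that sheath, were the others. The 3 brighter with PatDp(dist2) were the signal gene Shh, at 1133 with MatDp(dist2) and 1428 with PatDp(dist2), and the homeobox genes Dlx3, at 310.1 with MatDp(dist2) and 353 with PatDp(dist2), and Msx2, at 258 with MatDp(dist2) and 259.8 with PatDp(dist2). Hoxc13, a hair matrix regulator, was below the floor in both heads. The epidermal and hair follicle lists were likewise chosen with earlier results of these data known. The part of the eye, skin and hair markers in the Pmel and Dct signals was not tested.

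Schwann cells share the crest origin of melanocytes, and 6 of their 7 matched genes, all measured, were brighter with PatDp(dist2) under every scaling tried. Past 2-fold were 1 toward MatDp(dist2) and 1 toward PatDp(dist2), where 4.43% and 3.47% of measured genes passed, and the median log2 ratio was -0.34. The count toward MatDp(dist2) was 0 with median centring, and that toward PatDp(dist2) was 2 with median centring, quantile normalization or the loess fit. The genes past 2-fold were Pou3f1, a transcription factor also of epidermis and neurons, at 552 with MatDp(dist2) and 245 with PatDp(dist2), and S100b, also an astrocyte and cartilage gene, at 511 with MatDp(dist2) and 1292 with PatDp(dist2). Pmp22, a protein of peripheral myelin, had 4324 with MatDp(dist2) and 5899 with PatDp(dist2), 1.36-fold lower with MatDp(dist2). The summed signal of the list was 6450 with MatDp(dist2) and 9044 with PatDp(dist2).

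**Figure D3:**
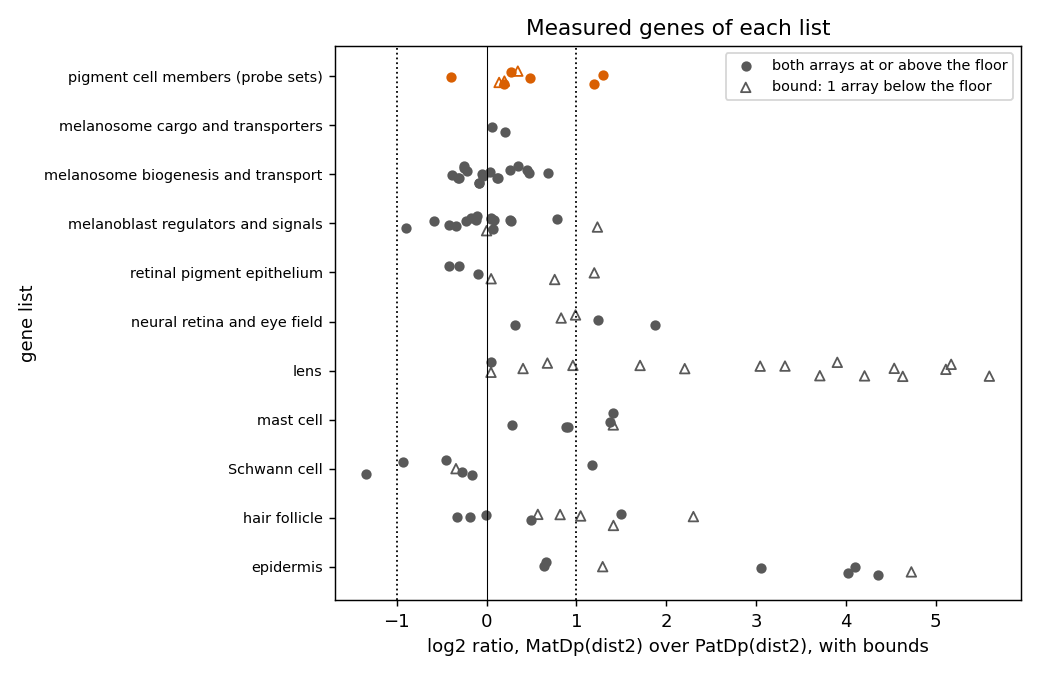
Log2 ratio of MatDp(dist2) over PatDp(dist2) for the measured pigment cell probe sets (orange) and for the measured genes of each list, 1 probe set per gene (grey), with open triangles for bounds where 1 array was below the floor and dotted lines at 2-fold. Melanosome and melanoblast genes lie mostly within the dotted lines, with Lef1 past them. Past 2-fold toward the MatDp(dist2) head lie 12 of 17 lens genes and 6 of 8 epidermal genes, against 4.43% of all measured genes. Members and lists were chosen with earlier results of these data known.

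As a check of the labelled tissue, genes of brain, muscle, cartilage, tooth and skin were above the floor in both heads. The neuronal gene Snap25 had 2529 with MatDp(dist2) and 1429 with PatDp(dist2), the muscle actin Acta1 had 17284 with MatDp(dist2) and 17717 with PatDp(dist2), and the enamel gene Ambn had 1524 with MatDp(dist2) and 4128 with PatDp(dist2). Past 2-fold toward MatDp(dist2) were Cryaa (at least 18.5-fold), Krt10, Tubb3 (3.68-fold) and Col2a1 (2.29-fold), and toward PatDp(dist2) Ambn (2.71-fold). Omp, the marker of mature olfactory neurons, was below the floor in both. Of the 8 melanocyte markers among the members, Pmel, Dct, Slc45a2, Mitf and Kit were at or above the floor in both heads, Tyrp1 in the MatDp(dist2) head alone, and Tyr and Mlana in neither.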

How the data were processed

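RNA of newborn heads of 2 genotypes was measured on 1 Affymetrix array per genotype. The deposited values are intensity signals on a linear scale from MAS5 and GCOS, per the submitters' processing notes, and the 2 arrays share a trimmed mean of 500 (2% trimmed at each end). No detection calls were used. Gene names are those of the platform annotation, brought up to date by gene ID from RefSeq (GRCm38.p6). Besides 64 controls there were 34945 probe sets with 1 symbol, 932 with several and 9160 with none in that annotation. Ratios are MatDp(dist2) over PatDp(dist2), on the log2 scale where said, computed from the deposited intensity values in Python 3.11.15 with no test. Bounds and the 2-fold threshold are as in the results. Each list gene was represented by its brightest probe set, and 133 of 147 listed genes were matched. The text names every member, up to 4 genes per list and direction past 2-fold, pathway genes on Chr 2 and Chr 9, and Sox10, Ednrb, Kitl and Mc1r. Other named list genes were chosen after their values were seen. Members and lists were chosen with earlier results of these data known. The ratio and count code was checked on simulated data. Alternatives were scaling (median centring, quantile normalization, a loess fit), the floor, an offset of 100 and the fold threshold.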

Additional observations from a re-analysis of the deposited data

How the results depend on the processing

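Of the 2 member probe sets past 2-fold toward MatDp(dist2), Pmel alone was left with median centring and with an offset of 100 (a count of 1 each), and 0 were left with the floor at the 70th percentile, a signal of 465, or at a 3-fold threshold. The offset and the higher floor shrink ratios by construction. The count stayed at 2 with quantile normalization, the loess fit and the 1.5-fold threshold, and was 3 with the floor at the 30th percentile, where Tyrp1 1415862_at also passed. The count toward the PatDp(dist2) head was 0 under every alternative run. Over all lists, 34 genes were at least 2-fold apart, against 50 at 1.5-fold, 42 with the lower floor, 36 with quantile normalization or the loess fit, 33 with median centring, 28 with the offset, 21 with the higher floor and 20 at 3-fold. Mlana, Rpe65, the dim Mitf probe set, Tyrp1 1415862_at and Tyr 1456095_at, all below the floor, moved most, with log2 ratios of 0.49, 0.14, -0.41, 0.66 and 0.18 with the offset. No paired analysis was possible because each genotype had 1 array, and leaving an array out leaves no comparison. With 1 array each, precision is limited by the number of arrays.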

Other observations

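The basic helix-loop-helix relatives of Mitf, which bind the same kind of element and act in lysosome formation, were each read by 1 probe set. Tfeb had signals of 577 with MatDp(dist2) and 770 with PatDp(dist2), 1.34-fold lower with MatDp(dist2), and Tfe3 had 558 with MatDp(dist2) and 539.5 with PatDp(dist2). Tfec was below the floor, at 10.4 with MatDp(dist2) and 60.1 with PatDp(dist2).

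The letters CATGTG on either strand were also in the 250 bases before the start of other pigment genes whose signals were below the floor in both heads. Mc1r had 2 matches, beginning 62 and 51 bases before the start, and Oca2 had 1, beginning 186 bases before it. Of the 2 windows of Trpm1, 1 had a match, beginning 141 bases before the start, and the window of Gpnmb had none.

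Pomc, the precursor of the melanocortin hormones, had a signal of 368 with MatDp(dist2) and 683 with PatDp(dist2) on its brighter probe set, 1.86-fold lower with MatDp(dist2). On the other it had 79.0 with MatDp(dist2) and 280.0 with PatDp(dist2), at least 1.5-fold lower with MatDp(dist2).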
